A study of Homo sapiens with 14 samples.

Results

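The effect of the compound ICG-001 after 24 h was measured in Mel202, a human uveal melanoma cell line that carries GNAQ mutations and is wild type for BRAF. The comparison takes in 7 of the 14 arrays of the series. These are the 4 arrays labelled as ICG-001 at 3 µM for 24 h and the 3 arrays labelled as the DMSO control for 24 h, DMSO being the solvent of the compound. Every culture was Mel202 in its usual serum-containing medium, so all values describe 1 tumour line with mutant GNAQ and no other genotype. The other 7 arrays hold the same treatments at 48 h. The titles of ICG-001 arrays 1 and 2 carry a common number with a final a or b, and so do those of DMSO arrays 2 and 3. Such arrays may come from 1 culture, so each pair was averaged, which left 3 ICG-001 replicates and 2 DMSO replicates. Nothing in the labels states that replicates were grown apart, so the p-values speak only of how these samples vary, and that variation may be technical.

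ICG-001 binds the coactivator CBP and blocks its interaction with β-catenin, the nuclear effector of Wnt signalling, while the related coactivator p300 is left able to bind. Uveal melanoma arises from melanocytes of the eye and is usually driven by an active Gαq subunit, the product of GNAQ or its relative GNA11, which signals through protein kinase C to the ERK kinases and to YAP. The transcription factor ATF4 is made when eIF2α is phosphorylated by stress kinases, and it raises genes that make, import and charge amino acids onto tRNA. The unfolded protein response of the endoplasmic reticulum (ER) shares that branch through the kinase PERK, and has other branches, through ATF6 and IRE1, that raise ER chaperones.

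Lineage markers were present. Of 24 melanocyte lineage genes named on the array, 21 had a detection p-value below 0.01 on all 7 arrays, among them the melanosome genes PMEL, MLANA, TYR and TYRP1 and the lineage regulators MITF, SOX10 and PAX3. Median raw signals were 120.0 to 126.8 on the ICG-001 arrays and 126.9 to 134.9 on the DMSO arrays. The b array of each pair detected fewer probes, 14060 with ICG-001 and 13898 with DMSO, against 15933 to 16321 on the other 5 arrays. The 2 DMSO replicates differed by over 1 log2 unit for 176 of the 11679 genes tested, and 6 of these 176 were called.

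ICG-001 changed many genes, most of them by little. At an adjusted p below 0.05 (limma, Benjamini-Hochberg over all genes tested, two-sided), 1602 genes rose with ICG-001 (13.7% of those tested) and 1231 fell (10.5%), together 2833 or 24.3%. In the text below, "rose" and "fell" mean past this threshold. Changes of at least 2-fold were fewer, 160 upward and 115 downward, and 40.7% of the calls were under 1.5-fold. For 5952 genes (51%) no ICG-001 replicate lay within the range of the DMSO replicates or the reverse, and these included all 2833 that were called. The median log2 change over all genes was 0.02. Without the averaged DMSO pair the count of called genes was 1514, of which 849 rose and 665 fell. All levels are log2 signals after background correction and quantile normalization, and all changes are ICG-001 minus DMSO on that scale. In the authors' processed table the log2 changes of 158 of the 319 named genes that were called were over 1.5 times smaller, so the sizes of many changes depend on how the signals were processed. The values of that table are on a scale close to log2 whose transformation is not stated. Their differences are called log2 changes below.

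**Figure D1:**
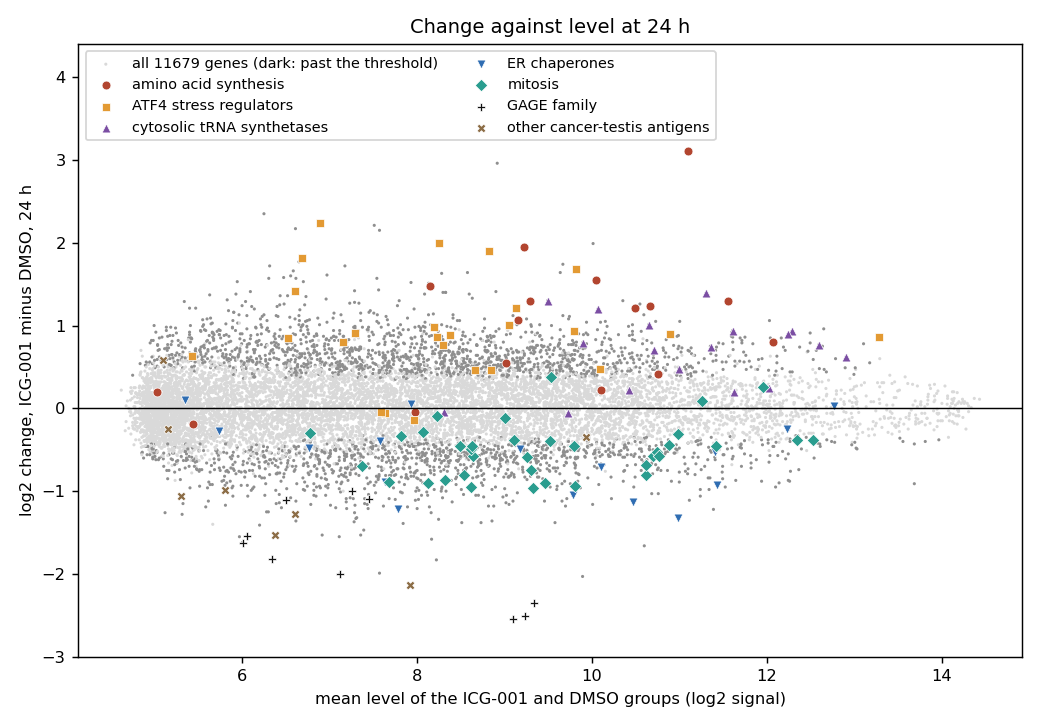
Change at 24 h (ICG-001 minus DMSO, log2, vertical axis) against the mean level of both groups (log2 signal, horizontal axis), with a point for each of the 11679 genes, dark where past the threshold and coloured for 7 gene lists. Amino acid synthesis genes, ATF4 stress regulators and cytosolic tRNA synthetases lie mostly above 0, and ER chaperones, mitosis genes and cancer-testis antigens mostly below.

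The enzymes that make amino acids rose together. Of 16 measured genes of amino acid synthesis and its one-carbon supply, 11 rose (68.8%, against 13.7% of all genes) and 0 fell, with a median log2 change of 1.14. ASNS, which makes asparagine from aspartate, had 12.83, 12.66, 12.57 and 12.64 log2 units on the ICG-001 arrays, against 9.51, 9.62 and 9.53 on the DMSO arrays. The 2 groups lay far apart, and this was the largest change of any gene tested (log2 change 3.11 ± 0.12 SE, 8.64-fold, adjusted p = 2.01e-07). The 3 enzymes of serine synthesis rose in step. PHGDH, which opens the pathway, read 11.06, 10.81, 10.86 and 10.69 with ICG-001, against 9.29, 9.45 and 9.08 with DMSO (2.94-fold, adjusted p = 5.03e-05). PSAT1, the next enzyme, averaged 12.21 ± 0.11 with ICG-001 (SD, n = 3) and 10.91 ± 0.28 with DMSO (SD, n = 2), a 2.46-fold rise (adjusted p = 0.000434). PSPH, the last enzyme and named after its value was seen, was 2.1-fold higher (adjusted p = 0.00103).

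The mitochondrial folate enzymes, which carry one-carbon units from serine, rose as well. MTHFD1L gained 1.30 log2 units, MTHFD2 gained 1.21 and SHMT2, named after its value was seen, gained 0.80. CTH and CBS, which convert homocysteine to cysteine, gained 1.48 and 1.23 log2 units, with every ICG-001 array above every DMSO array for CTH (8.67 to 9.10 against 7.30 to 7.60). PCK2, the mitochondrial phosphoenolpyruvate carboxykinase, was 3.87-fold higher, and both its other probes were called in the same direction. The members that did not pass were PYCR1 (log2 change 0.22), ASS1 (-0.04), GOT1 (0.42), GLUL (-0.19) and ALDH1L2 (0.20), listed in full after their values were seen.

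Amino acid transporters showed a smaller change. Of 18 measured, 9 rose (50%) and 0 fell, with a median of 0.39, and the count that rose was 3 without the averaged DMSO pair. SLC7A1, a carrier of arginine and lysine, read 11.23, 11.25, 11.11 and 11.14 with ICG-001, against 10.01, 10.06 and 10.05 with DMSO (2.19-fold, adjusted p = 0.000214). The arrays of each group were close together and the groups did not overlap. The glutamine carriers SLC38A1 and SLC38A2 rose by 1.01 and 0.64 log2 units. SLC7A5 and SLC3A2, the chains of a carrier of large neutral amino acids, rose by 0.79 and 0.63, and both calls ended without the DMSO pair (adjusted p = 0.0538 and 0.0942). SLC7A11, the cystine carrier, was near background (log2 change 0.40, adjusted p = 0.0484), and its call ended under 14 of 19 alternatives.

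**Figure D2:**
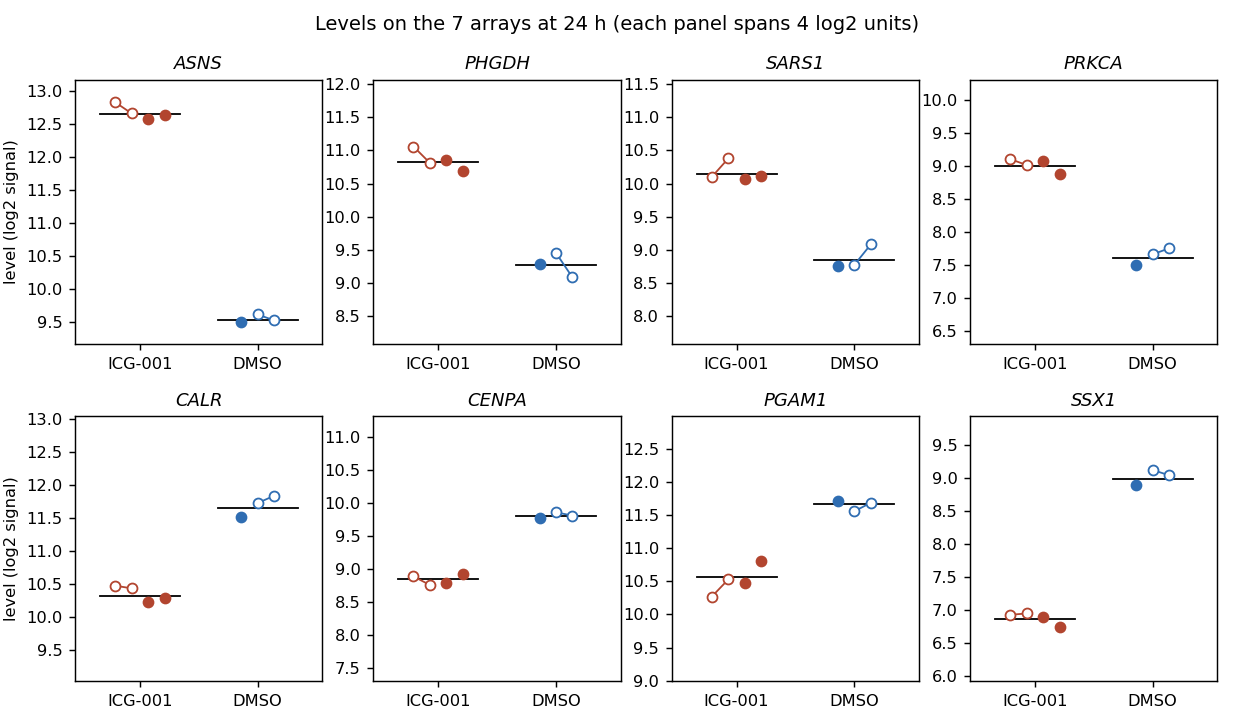
Level (log2 signal, vertical axis, 4 units in every panel) of 8 genes on each array at 24 h, ICG-001 in red on the left and DMSO in blue on the right. Open circles joined by a line are the a and b arrays averaged to 1 replicate, filled circles are the other replicates, and the bar is the group mean; in all 8 panels the groups do not overlap.

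Enzymes that charge tRNA for translation in the cytosol rose, and their mitochondrial counterparts changed less. Of 18 cytosolic aminoacyl-tRNA synthetases, 12 rose (66.7%) and 0 fell, with a median log2 change of 0.76. Of 15 mitochondrial synthetases, 5 rose (33.3%, against 13.7% of all genes) and 2 fell (13.3%, near the 10.5% of all genes). The other 8 did not pass, and the median was 0.15. EPRS1, which charges glutamate and proline, read 12.18, 12.05, 11.87 and 12.01 with ICG-001, against 10.71, 10.64 and 10.37 with DMSO (log2 change 1.39 ± 0.14 SE, adjusted p = 0.000177). SARS1, the serine enzyme, read 10.10, 10.38, 10.07 and 10.12 with ICG-001, against 8.76, 8.77 and 9.08 with DMSO (1.30 ± 0.12 SE, adjusted p = 0.0001). Both genes were higher on every ICG-001 array than on any DMSO array. WARS1 (tryptophan), LARS1 (leucine), AARS1 (alanine), NARS1 (asparagine), MARS1 (methionine) and GARS1 (glycine) rose by 0.77 to 1.20 log2 units, and these calls held under all 20 alternatives. GARS1 also serves the mitochondrion in human cells. Not every enzyme of the cytosol moved. Among those that did not pass, named after their values were seen, KARS1 (lysine) had a log2 change of -0.06, FARSA (phenylalanine) -0.05, RARS1 (arginine) 0.20, HARS1 (histidine) 0.22 and QARS1 (glutamine) 0.24.

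In the mitochondrial set CARS2 (cysteine) rose by 0.99 log2 units (adjusted p = 0.000973). It read 7.83, 7.68, 7.84 and 7.77 with ICG-001, against 6.96, 6.81 and 6.48 with DMSO, and the groups did not overlap. TARS2 and VARS2 rose by 0.71 and 0.60. NARS2 and HARS2 fell, by 0.54 and 0.40 on the log2 scale, and the call of NARS2 ended without DMSO replicate 1 (adjusted p = 0.113). HARS2 lost its call under 10 of 20 alternatives. Without DMSO replicate 1 the count of mitochondrial synthetases that fell was 0, and without the DMSO pair the counts were 3 up and 1 down.

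**Figure D3:**
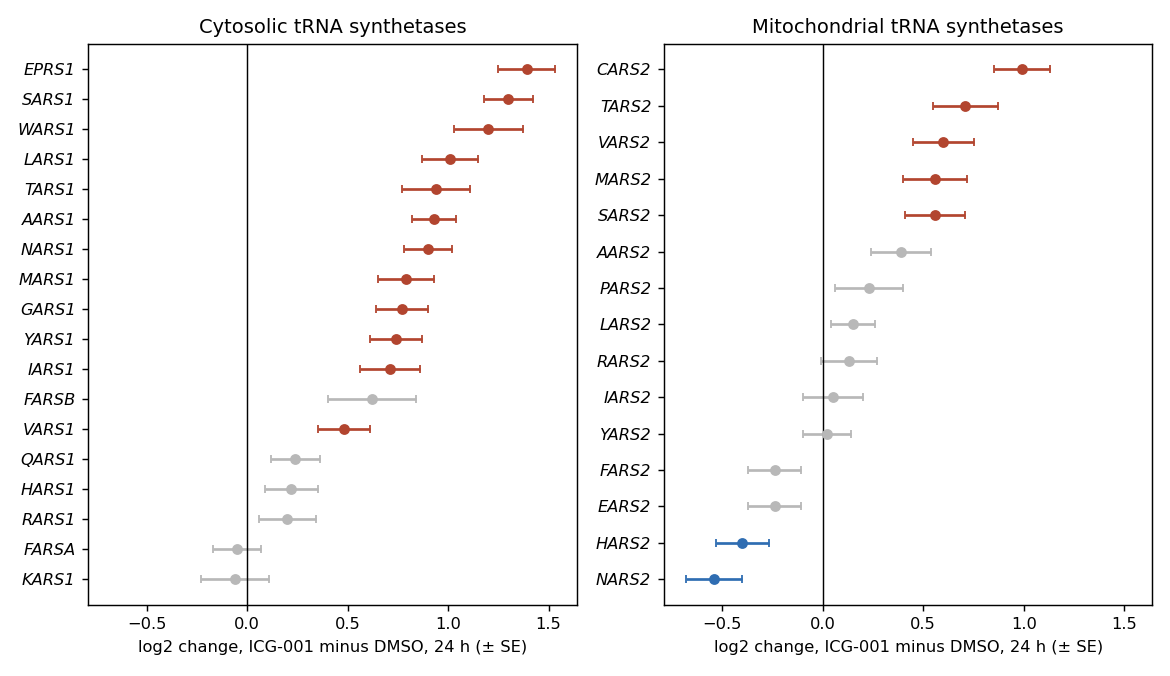
Log2 change at 24 h, ICG-001 minus DMSO, with its SE (horizontal axis) for 18 cytosolic and 15 mitochondrial tRNA synthetases, red where the gene rose, blue where it fell and grey where it did not pass. In the cytosolic panel 12 points are red and 0 blue, and in the mitochondrial panel 5 are red and 2 blue.

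Regulators and stress outputs known to lie downstream of ATF4 moved the same way. Of 25 measured, 20 rose (80%) and 0 fell, with a median log2 change of 0.88. ATF4 itself read 13.65, 13.69, 13.67 and 13.81 with ICG-001, against 12.79, 12.81 and 13.01 with DMSO (1.82-fold, adjusted p = 0.000896). Its transcript was thus higher on every ICG-001 array, and the protein was not measured. STC2, a secreted glycoprotein, was 4.72-fold higher, DDIT4, which restrains mTORC1, was 3.74-fold higher and the pseudokinase TRIB3, which feeds back on ATF4, was 3.2-fold higher. CHAC1, which degrades glutathione, had 8.02, 7.86, 7.40 and 7.45 with ICG-001, against 5.36, 6.03 and 6.38 with DMSO. The groups did not overlap, DMSO array 1 was the lowest, and the log2 change of CHAC1 was 1.81 here and 0.68 by the authors' processed values. VEGFA (2.67-fold), the transcription factors CEBPB (1.86-fold) and ATF3 (log2 change 0.86), and PPP1R15A, which leads a phosphatase to eIF2α (log2 change 0.93), rose too. DDIT3, which encodes CHOP, stood apart. It read 8.27, 8.16, 7.62 and 7.87 with ICG-001, against 7.78, 8.26 and 8.36 with DMSO, so the groups overlapped (log2 change -0.14 ± 0.19 SE, adjusted p = 0.632).

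The kinases that phosphorylate eIF2α gave no call. EIF2AK1, EIF2AK2, EIF2AK3 (PERK) and EIF2AK4 (GCN2) had log2 changes of 0.25, 0.20, 0.14 and 0.38, and GCN1, the partner of GCN2, had 0.32. The substrate itself, EIF2S1 (eIF2α), rose by 0.83 log2 units (8.57, 8.54, 8.52 and 8.37 with ICG-001, against 7.46, 7.74 and 7.93 with DMSO, adjusted p = 0.00448). The other eIF2 subunits, EIF2S2 and EIF2S3, rose by 0.74 and 0.73, and both calls ended without the DMSO pair (adjusted p = 0.176 and 0.43). Of 38 translation factors in all, 7 rose (18.4%, near the 13.7% of all genes) and 0 fell (against 10.5%). The count of translation factors that rose was 3 without the DMSO pair. EIF3C, a subunit of the initiation factor eIF3, had the largest change of them (2.24-fold). Of 65 cytosolic ribosomal proteins, 4 rose (6.15%, below the share of all genes) and 0 fell.

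Promoters of these genes were searched for the C/EBP-ATF response element, the composite site through which ATF4 and its partners act. RefSeq promoters (GRCh38.p14, 250 bases before the gene start and 50 from it onward) were matched by symbol. The letters searched were TGATGNAA on both strands. It is found in 3.67% of all 27305 promoters, 1.7% of the 9371 promoters of tested genes, 2.95% of those of genes that rose and 1.02% of those of genes that fell. Among cytosolic synthetases with a promoter in the table it was present in 5 of the 9 that rose and in 5 of all 15. Among transporters it was present in 4 of the 8 that rose and in 4 of all 16. It was present in 2 of 9 amino acid synthesis genes that rose and in 3 of all 12, the other being GOT1, which did not pass. It was present in 2 of 16 ATF4 regulators that rose and in 2 of all 21. The sites of 11 genes that rose are shown because they let the element be read in genes of 4 functions. They were chosen for holding it, and several of the genes were named after their values were seen. Each is written 5′ to 3′ on the strand where the element reads as spelled, with the element in capitals.
ASNS, chr7:97872459-97872486, minus strand: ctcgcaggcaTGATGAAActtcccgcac
CHAC1, chr15:40953252-40953279, minus strand: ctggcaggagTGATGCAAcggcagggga
MTHFD1L, chr6:150866347-150866374, plus strand: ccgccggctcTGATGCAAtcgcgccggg
SLC7A1, chr13:29595664-29595691, minus strand: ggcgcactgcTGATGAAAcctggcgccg
SLC38A1, chr12:46266503-46266530, minus strand: cagacccgaaTGATGAAAagggatcagc
SLC3A2, chr11:62881726-62881748, minus strand: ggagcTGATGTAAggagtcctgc
AARS1, chr16:70289676-70289703, plus strand: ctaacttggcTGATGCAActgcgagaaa
IARS1, chr9:92293693-92293720, plus strand: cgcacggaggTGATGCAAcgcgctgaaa
MARS1, chr12:57488054-57488081, minus strand: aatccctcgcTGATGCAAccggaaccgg
NARS1, chr18:57621805-57621832, minus strand: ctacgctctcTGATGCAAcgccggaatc
TARS1, chr5:33440957-33440984, minus strand: ctggaccagcTGATGCAAtcgaaaggcg

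The word TGATGCAA was read in all 5 synthetase promoters shown and in CHAC1 and MTHFD1L, TGATGAAA in ASNS, SLC7A1 and SLC38A1, and TGATGTAA in SLC3A2. SLC1A3 (TGATGCAA) and ATF3 (TGATGGAA) also rose and hold the element, and their sites are not shown. IARS1 and TARS1 rose by 0.71 and 0.94 log2 units. A match in letters is a description of the sequence and not evidence that a factor was bound.

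Chaperones of the ER lumen fell while the ATF4 genes rose. Of 16 measured, 9 fell (56.2%, against 10.5% of all genes) and 0 rose, with a median log2 change of -0.51. CALR, a calcium-binding chaperone of glycoproteins, read 10.48, 10.44, 10.24 and 10.29 with ICG-001, against 11.52, 11.73 and 11.84 with DMSO (2.5-fold lower, adjusted p = 0.000184). HYOU1, an exchange factor of the ER HSP70, read 7.24, 6.88, 7.16 and 7.32 with ICG-001, against 8.28, 8.57 and 8.42 with DMSO (2.31-fold lower). For both genes all ICG-001 arrays lay below all DMSO arrays. The disulfide isomerases PDIA6 and PDIA4 and the small ER factors SDF2L1, MANF, CRELD2 and DNAJB11 fell by 0.53 to 1.13 on the log2 scale, with CRELD2 and DNAJB11 losing their calls without the DMSO pair (adjusted p = 0.0643 and 0.0676). Other well-known luminal chaperones, named after their values were seen, did not pass. HSPA5 (BiP) had a log2 change of -0.39 (adjusted p = 0.142), HSP90B1 (GRP94) 0.03 and P4HB -0.25.

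The sensors and the degradation machinery of the ER gave little. Of 11 measured, 1 rose (9.09%, against 13.7% of all genes) and 0 fell. The gene that rose was EDEM3 (1.82-fold), which trims mannose from misfolded glycoproteins. ATF6, XBP1 and SYVN1 had log2 changes of 0.23, 0.21 and 0.22. Without DMSO replicate 1 the count that rose was 3. Of 27 proteasome subunits, 8 fell (29.6%, against 10.5% of all genes) and 0 rose, with a median of -0.22. PSMD1 and PSMD3, of the regulatory particle, fell by 0.79 and 0.70. The count of subunits that fell was 3 without the DMSO pair and 3 without DMSO replicate 1. Of 17 cytosolic heat shock proteins, the HSP40 chaperone DNAJB1 fell 1.78-fold and the lens chaperone CRYAB rose 1.66-fold. The counts were 1 up (5.88%, against 13.7% of all genes) and 3 down (17.6%, against 10.5%). They were 3 up and 1 down without DMSO replicate 1.

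The ER stress response element, which binds ATF6 with NF-Y, was read as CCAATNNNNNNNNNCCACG on both strands. It occurs in 22 of 27305 promoters (0.0806%) and in 14 of those of tested genes. In chaperone promoters it was present in 5 of 16, and 3 of these 5 genes fell, CALR, CANX and CRELD2, with HSPA5 and HSP90B1 not past the threshold. The sites of the 3 that fell are shown, CANX (log2 change -0.49) being named for its site, with the element in capitals and each strand chosen as above.
CALR, chr19:12938374-12938412, minus strand: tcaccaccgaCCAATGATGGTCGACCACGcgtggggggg
CANX, chr5:179698768-179698806, plus strand: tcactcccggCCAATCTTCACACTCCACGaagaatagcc
CRELD2, chr22:49918544-49918582, minus strand: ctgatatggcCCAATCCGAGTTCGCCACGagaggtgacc

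Genes of mitosis fell. Of 36 measured, 24 fell (66.7%) and 0 rose, with a median log2 change of -0.48, and the count that fell was 20 without the DMSO pair and 15 without DMSO replicate 1. In bulk RNA, fewer cells in mitosis and less RNA per cell cannot be told apart. CENPA, the histone variant of centromeres, read 8.89, 8.76, 8.79 and 8.93 with ICG-001, against 9.77, 9.86 and 9.81 with DMSO (1.94-fold lower, adjusted p = 0.000714). AURKB, the kinase of the chromosomal passenger complex, read 9.39, 9.00, 9.49 and 9.35 with ICG-001, against 10.21, 10.36 and 10.34 with DMSO (1.92-fold lower, adjusted p = 0.000954). Both sets of arrays were tight and apart. The complex member CDCA8, the chromokinesin KIF4A, the spindle factor TPX2, the kinetochore protein NUF2, the ligase factor CDCA3 and the mitotic cyclin CCNB2 fell by 0.68 to 0.96 on the log2 scale together with CENPA and AURKB, and these 8 calls held under all 20 alternatives. BIRC5 (survivin), the fourth member of the passenger complex and a gene tied to CBP and β-catenin in earlier work on ICG-001, read 10.34, 10.16, 10.18 and 10.29 with ICG-001, against 10.41, 10.06 and 9.99 with DMSO. Its groups overlapped (log2 change 0.02 ± 0.13 SE, adjusted p = 0.923).

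Genes of DNA synthesis did not follow as a set. Of 40 measured, 7 fell (17.5%, against 10.5% of all genes), 1 rose (2.5%, against 13.7%) and 32 did not pass, with a median of 0.05. The count that fell was 3 without the DMSO pair, and the count that rose was 3 without DMSO replicate 1. LIG1, the ligase of lagging strands, fell 1.97-fold, and TYMS and TK1, which supply thymidine nucleotides, fell 1.58-fold and 1.7-fold. Among G1 regulators the kinase CDK6 rose 1.9-fold, while CCND1 (log2 change 0.39, adjusted p = 0.0535) and CDKN1A (0.14, adjusted p = 0.537) did not pass. Core histones went both ways, H2BC21 rising 2.56-fold and H2AX falling 2.31-fold.

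The cell cycle homology region, the letters TTTGAA near the start of genes of the late cell cycle, was searched on both strands, and on the same scale the CCAAT box. TTTGAA is found in 15.4% of all promoters and 10% of those of tested genes, and in 20 of 31 mitosis promoters (64.5%), 13 of them among the 21 that fell. CCAAT, which is also the first part of the ER stress response element, is found in 35.7% of all promoters and in 24 of 31 mitosis promoters. It is not particular to mitosis genes, being present in 15 of 16 ER chaperone promoters and 21 of 35 DNA replication promoters, against 3 of 16 transporter promoters. For DNA replication genes TTTGAA was present in 2 of 35. The region is shown for 5 mitosis genes that fell and hold it within 34 bases before the start and on the coding strand. PLK1, a mitotic kinase, was named for its site (log2 change -0.70). CDCA3 and INCENP also fell and hold it so placed, and their sites are not shown.
CENPA, chr2:26786028-26786053, plus strand: gagcgagcgaTTTGAAcgcgagcggc
CDCA8, chr1:37692483-37692508, plus strand: gactgtggagTTTGAAttgggtggcg
PLK1, chr16:23678850-23678875, plus strand: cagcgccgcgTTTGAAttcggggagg
CCNB2, chr15:59105107-59105132, plus strand: cgacgcggtaTTTGAAtcctggaaca
KIF4A, chrX:70290060-70290085, plus strand: ccgggacggaTTTGAAacttggcggt

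Among genes of apoptosis, PMAIP1 (NOXA), a BH3-only antagonist of MCL1, changed most. It read 9.31, 9.78, 9.14 and 9.10 with ICG-001, against 7.28, 7.08 and 7.40 with DMSO (4-fold, adjusted p = 5.03e-05). BCL2L1, which encodes the survival protein BCL-xL, read 8.98, 8.97, 9.25 and 8.99 with ICG-001, against 9.72, 9.80 and 9.77 with DMSO (1.61-fold lower, adjusted p = 0.00449). Both genes separated the groups on every array, in opposite directions. The other probe of BCL2L1 was not called. Of 16 genes of the BCL2 family, 4 rose (25%, against 13.7% of all genes) and 2 fell (12.5%, near the 10.5% of all genes). The count that rose was 2 without the DMSO pair or without DMSO replicate 1. HRK, another BH3-only gene, rose by 0.87 log2 units, a call that ended without DMSO replicate 1 (adjusted p = 0.0652). BID rose by 0.63, and another probe of BID was called in the opposite direction. Of 20 p53 targets, 7 rose (35%, against 13.7% of all genes) and 1 fell (5%, against 10.5%), with 4 rising without the DMSO pair. PMAIP1 and GADD45A, which ATF4 also controls, had the smallest p of them, and the p53 target CDKN1A did not pass. Of 11 genes of the IAP and death receptor pathway, the adaptor FADD rose by 0.51 and the protease HTRA2 fell by 0.51, and the other 9 did not pass. That is 9.09% each way, against 13.7% and 10.5% of all genes.

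Genes of the pathway that ICG-001 is known to act on gave a mixed picture. CREBBP, which encodes CBP, read 9.61, 9.23, 9.31 and 9.39 with ICG-001, against 9.37, 9.68 and 9.46 with DMSO. EP300, which encodes p300, read 7.09, 7.03, 7.16 and 7.60 with ICG-001, against 7.01, 7.04 and 7.29 with DMSO. The groups overlapped for both (log2 changes -0.09 and 0.18, adjusted p = 0.621 and 0.575). Of 18 cofactors of CBP, p300, β-catenin and TCF, 5 rose (27.8%, against 13.7% of all genes) and 1 fell (5.56%, against 10.5%). The count of cofactors that rose was 1 without the DMSO pair. Among 18 target genes of Wnt signalling and β-catenin, the counts were 7 up (38.9%, against 13.7% of all genes) and 2 down (11.1%, near the 10.5%). Without the DMSO pair 3 rose and 0 fell. TNFRSF19 (3.97-fold) and the hyaluronan receptor CD44 (1.68-fold) rose under all 20 alternatives. No other probe of CD44 was called. MYC, a growth-promoting transcription factor, read 12.66, 12.45, 12.56 and 12.56 with ICG-001, against 11.93, 11.10 and 11.04 with DMSO. The ICG-001 arrays were close together while DMSO array 1 stood above the DMSO pair, and the log2 change of 1.06 was 0.63 without the pair and 1.49 without replicate 1. CTNNB1, GNAQ and C6orf62 showed the same split of the DMSO arrays. CTNNB1, which encodes β-catenin, did not pass (log2 change 0.67, adjusted p = 0.0912), though another of its probes was called in the same direction. GNAQ read 7.54, 7.53, 7.36 and 7.59 with ICG-001, against 7.49, 6.67 and 6.16 with DMSO, and did not pass (log2 change 0.54, adjusted p = 0.127).

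Downstream of Gαq, the protein kinase C gene PRKCA rose. It read 9.10, 9.01, 9.07 and 8.88 with ICG-001, against 7.50, 7.66 and 7.75 with DMSO (2.64-fold, adjusted p = 0.000146), with the groups well apart. The isoforms PRKCD and PRKCE had log2 changes of 0.08 and -0.03, GNA11 had -0.06, and the Ras activator RASGRP3 had 0.31, none past the threshold. Of 17 genes that report ERK activity, 4 rose (23.5%, against 13.7% of all genes) and 2 fell (11.8%, near the 10.5% of all genes). The count that rose was 0 without the DMSO pair. The ERK inhibitors SPRY1, SPRY2 and SPRED2 rose by 0.57, 0.56 and 0.66 log2 units, and EGR1, an immediate-early gene, fell by 0.80. EGR1 read 7.80, 7.87, 7.50 and 7.63 with ICG-001, against 8.22, 8.75 and 8.63 with DMSO (adjusted p = 0.00459). Of 22 CREB targets and immediate-early genes, 4 rose and 4 fell (18.2% each, against 13.7% and 10.5% of all genes). This balance turned with the DMSO replicates (2 up and 5 down without the pair, 4 up and 2 down without replicate 1). IER5 fell 2.1-fold and SIK1 rose by 0.59 log2 units under all 20 alternatives, whereas FOS fell by 0.49 and JUNB by 0.84 on the log2 scale with calls that ended without DMSO replicate 1 (adjusted p = 0.0759 for JUNB).

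Of 12 genes of the JNK and p38 stress pathways, 2 fell (16.7%, against 10.5% of all genes) and 1 rose (8.33%, against 13.7%). MAP3K7 rose by 0.48 log2 units, and its call ended under 10 of 20 alternatives. MAPK10 and MAP2K6 fell. MAPK10 (JNK3) read 6.88, 6.43, 6.69 and 6.63 with ICG-001, against 7.79, 8.09 and 8.02 with DMSO (2.4-fold lower, adjusted p = 0.000279). MAP2K6, an activator of p38, read 5.41, 4.84, 5.58 and 5.80 with ICG-001, against 7.04, 7.05 and 6.52 with DMSO (2.66-fold lower, adjusted p = 0.00074). The groups did not overlap for MAPK10 and MAP2K6, whose log2 changes by the authors' processed values were -0.60 and -0.43. Of 18 YAP and TAZ targets, 5 rose (27.8%, against 13.7% of all genes) and 1 fell (5.56%, against 10.5%), with 2 rising without the DMSO pair. MYOF (2.97-fold) and CRIM1 (log2 change 1.02) rose under all 20 alternatives.

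Of 18 glycolysis genes, 6 fell (33.3%, against 10.5% of all genes), 2 rose (11.1%, near the 13.7%) and 10 did not pass. The enzymes that fell were ALDOA, TPI1, PGK1, PGAM1, PKM and LDHA, which act at or after the splitting of fructose bisphosphate, and the 2 that rose were the glucose carrier SLC2A1 (log2 change 0.71) and hexokinase HK2 (0.76), which admit glucose. PGAM1, the phosphoglycerate mutase, read 10.27, 10.53, 10.47 and 10.81 with ICG-001, against 11.72, 11.56 and 11.69 with DMSO (2.16-fold lower, adjusted p = 0.00115). TPI1 fell 1.86-fold and PKM, the last enzyme before pyruvate, fell 1.6-fold, each with another probe called in the same direction. ALDOA had 3 probes past the filter, and only its brightest was called. The calls of ALDOA, PGK1 and LDHA ended without DMSO replicate 1 (adjusted p = 0.0764, 0.114 and 0.132), which left 3 that fell. GAPDH (-0.18) and ENO1 (-0.06), on the same stretch of the pathway, did not pass and were named after their values were seen.

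In the mitochondrion OGDH, a subunit of the 2-oxoglutarate dehydrogenase of the citric acid cycle, read 7.48, 6.84, 7.27 and 7.04 with ICG-001, against 8.52, 8.67 and 8.46 with DMSO. It was lower on all ICG-001 arrays (2.62-fold, adjusted p = 0.000146), with a log2 change of -0.78 by the authors' processed values. Of 21 citric acid cycle genes, 4 fell (19%, against 10.5% of all genes) and 0 rose. The count that fell was 1 without the DMSO pair, and 2 rose without DMSO replicate 1. Of 36 genes of oxidative phosphorylation, 4 fell (11.1%, near the share of all genes) and 1 rose (2.78%), and 10 fell in the authors' table. Of 15 hypoxia targets, 4 rose (26.7%, against 13.7% of all genes), among them VEGFA and NDRG1 (2.22-fold). A single target fell (6.67%), and without the DMSO pair 2 rose and 0 fell. Of 5 genes of the metallothionein system, 2 fell (40%, against 10.5% of all genes) and 3 did not pass. MT2A fell 2.27-fold. The metal-sensing factor MTF1 fell by 0.67 on the log2 scale, and its call ended under 9 of 20 alternatives. MT1X, MT1E and SLC30A1 had log2 changes of -0.33, -0.20 and -0.09, none past the threshold. For 18 cholesterol genes the counts were 2 up (11.1%, against 13.7% of all genes) and 3 down (16.7%, against 10.5%). They were 4 up and 5 down without DMSO replicate 1. MVK and EBP fell by 1.05 and 0.96, and CYP51A1 and MSMO1 rose by 0.67 and 0.59.

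Cancer-testis antigens held the deepest falls. They are genes that are silent in most adult tissue outside the germ line and often active in melanoma, and the GAGE and SSX families lie on the X chromosome. All 10 measured GAGE genes fell, with a median log2 change of -1.72 and the deepest fall in GAGE12B (-2.54). By the authors' processed values all 10 also fell, but the changes were smaller, from -1.94 (GAGE12H) to -0.38 (GAGE12J). The sizes of these falls therefore depend on the processing. GAGE12H read 7.80, 7.88, 8.10 and 8.00 with ICG-001, against 10.32, 10.79 and 10.52 with DMSO (5.71-fold lower, adjusted p = 1.79e-05), and every other GAGE gene also kept its groups apart. The GAGE genes are near-identical copies. Of 28 pairs among the 8 GAGE promoters in the RefSeq table, the median identity base by base was 100%, with a lowest of 25.3%. Which copy a probe reports is therefore uncertain, and the 10 calls may be fewer independent measurements. None of the 8 promoters held any of the 4 motifs searched. Of 8 other cancer-testis antigens, 5 fell and 1 rose. SSX1, a nuclear repressor known from fusions in synovial sarcoma, read 6.93, 6.95, 6.89 and 6.74 with ICG-001, against 8.90, 9.12 and 9.04 with DMSO (4.39-fold lower, adjusted p = 1.29e-05). SSX4 was 2.88-fold lower, SSX3 and SSX2 fell by 1.27 and 0.99 on the log2 scale and SSX5 was at least 1.67-fold lower, being above background on no ICG-001 array. By the authors' processed values the log2 changes of SSX1, SSX4, SSX3 and SSX2 were -1.24, -0.51, -0.46 and -0.26. That of SSX5 was -0.25, so its bound holds only for the processing used here. The SSX copies are alike too and cannot be assigned with certainty. PRAME (-0.34) and XAGE1B (-0.25) did not pass. The rise of MAGEA6 was at least 1.19-fold here and 0.13 log2 units by the authors' processed values, and its call ended under 16 of 19 alternatives.

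Falls were the larger part of the change in melanocyte genes. Of 23 measured, 8 fell (34.8%, against 10.5% of all genes) and 4 rose (17.4%, near the 13.7% of all genes). The other 11 did not pass. The count that fell was 5 without DMSO replicate 1, and the count that rose was 2 without the DMSO pair. SLC45A2, a melanosomal transporter, read 11.28, 10.95, 11.07 and 11.03 with ICG-001, against 11.85, 12.09 and 11.89 with DMSO (1.8-fold lower, adjusted p = 0.000625), and all its 3 other probes were called the same way. RAB27A and RAB38, which serve melanosome transport and formation, fell by 0.81 and 0.49 on the log2 scale, and the endothelin receptor EDNRB by 0.57. MITF, the lineage regulator, had overlapping groups (log2 change -0.12, adjusted p = 0.561). N-cadherin, CDH2, rose 3.15-fold, at 7.29, 7.47, 7.58 and 7.29 with ICG-001, against 5.77, 5.78 and 5.71 with DMSO. E-cadherin, CDH1, fell by 0.78, and its call ended without the DMSO pair (adjusted p = 0.136), without DMSO replicate 1 and without the ICG-001 pair. ERBB3 and TFAP2A rose on their brightest probe, by 0.90 and 0.96, but each had another probe called in the opposite direction.

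Markers of other cells were checked in the same arrays. Of 6 tested markers of the retinal pigment epithelium, the pigmented layer behind the retina, SERPINF1, TTR, MERTK and BEST1 rose, with 1 of the 4 calls kept without the DMSO pair and 2 without DMSO replicate 1. The summed signal of the 6 was 3241 to 3390 with ICG-001 and 2057 to 2170 with DMSO. The visual cycle markers RLBP1 and LRAT had no detection p-value below 0.01 on any of the 7 arrays. SERPINF1 (PEDF), a secreted protein, read 11.03, 11.10, 11.16 and 11.00 with ICG-001, against 10.21, 10.27 and 10.45 with DMSO, and its groups did not overlap. Of 2 fibroblast markers, LUM fell 3.55-fold, and COL1A1 was detected below 0.01 on 0 ICG-001 arrays and 1 DMSO array. Of 2 immune markers, CD68, a lysosomal protein, fell by 0.58 with no other probe called, and CD14 was below 0.01 on no array. The endothelial marker EMCN, the epithelial marker CLDN4 and the neural markers NCAM1, TUBB3 and MBP did not pass. Any part of such cells in the results was not tested.

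Of 30 matrix and adhesion genes, 8 rose (26.7%, against 13.7% of all genes) and 2 fell, with 3 rising without the DMSO pair. The integrin chain ITGA3 rose by 0.95 log2 units and the proteoglycan BGN by 0.85. The 2 that fell were LUM, a collagen-binding proteoglycan, and HAS2, which makes hyaluronan. LUM read 6.96, 7.01, 7.46 and 7.48 with ICG-001, against 9.12, 9.23 and 9.06 with DMSO, and its other probe was not called. HAS2 read 4.81, 4.74, 5.41 and 5.43 with ICG-001, against 6.93, 6.64 and 6.52 with DMSO. It was above background (detection p-value below 0.05) on only 2 of 4 ICG-001 arrays, against 3 of 3 DMSO arrays, and its log2 change was -0.44 by the authors' processed values, so the size of its fall is uncertain. In the Notch pathway NOTCH1, a receptor, read 8.71, 8.68, 8.26 and 8.38 with ICG-001, against 7.04, 7.41 and 7.10 with DMSO (2.46-fold, adjusted p = 0.000394). The Notch target HES1 fell by 0.59, with a call that ended under 10 of 20 alternatives. SMAD6, an inhibitor of BMP signalling, and ID4, a BMP target, rose 2.21-fold and 1.92-fold, while ID1, ID2 and ID3, named after their values were seen, had log2 changes of -0.20, -0.04 and -0.16.

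Other lists lay near the background or depended on 1 replicate. Of 28 lysosome and autophagy genes, 9 fell (32.1%, against 10.5% of all genes) and 4 rose (14.3%, near the 13.7%), but 2 fell without the DMSO pair. The sialidase NEU1 fell by 0.77 and the autophagy enzyme ATG7 rose by 0.87. Of 16 interferon response genes, 5 fell (31.2%, against 10.5% of all genes) and 2 rose (12.5%, near the 13.7%). The count that fell was 0 without the DMSO pair and 2 without DMSO replicate 1. IFIT1, IFIT3, IFI44 and USP18 fell by 0.65 to 0.94, and their calls ended without either DMSO replicate and without the ICG-001 pair. Of 20 small nuclear and nucleolar RNAs, 5 fell (25%, against 10.5% of all genes) and 1 rose (5%, against 13.7%), with 3 falling without the DMSO pair. Most such RNAs lack the poly(A) tail that oligo(dT) priming uses. By median log2 change, as ordered in the plot of called shares, GAGE genes, other cancer-testis antigens, mitosis genes and ER chaperones stand furthest below and ATF4 regulators, amino acid synthesis genes and cytosolic synthetases furthest above.

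**Figure D4:**
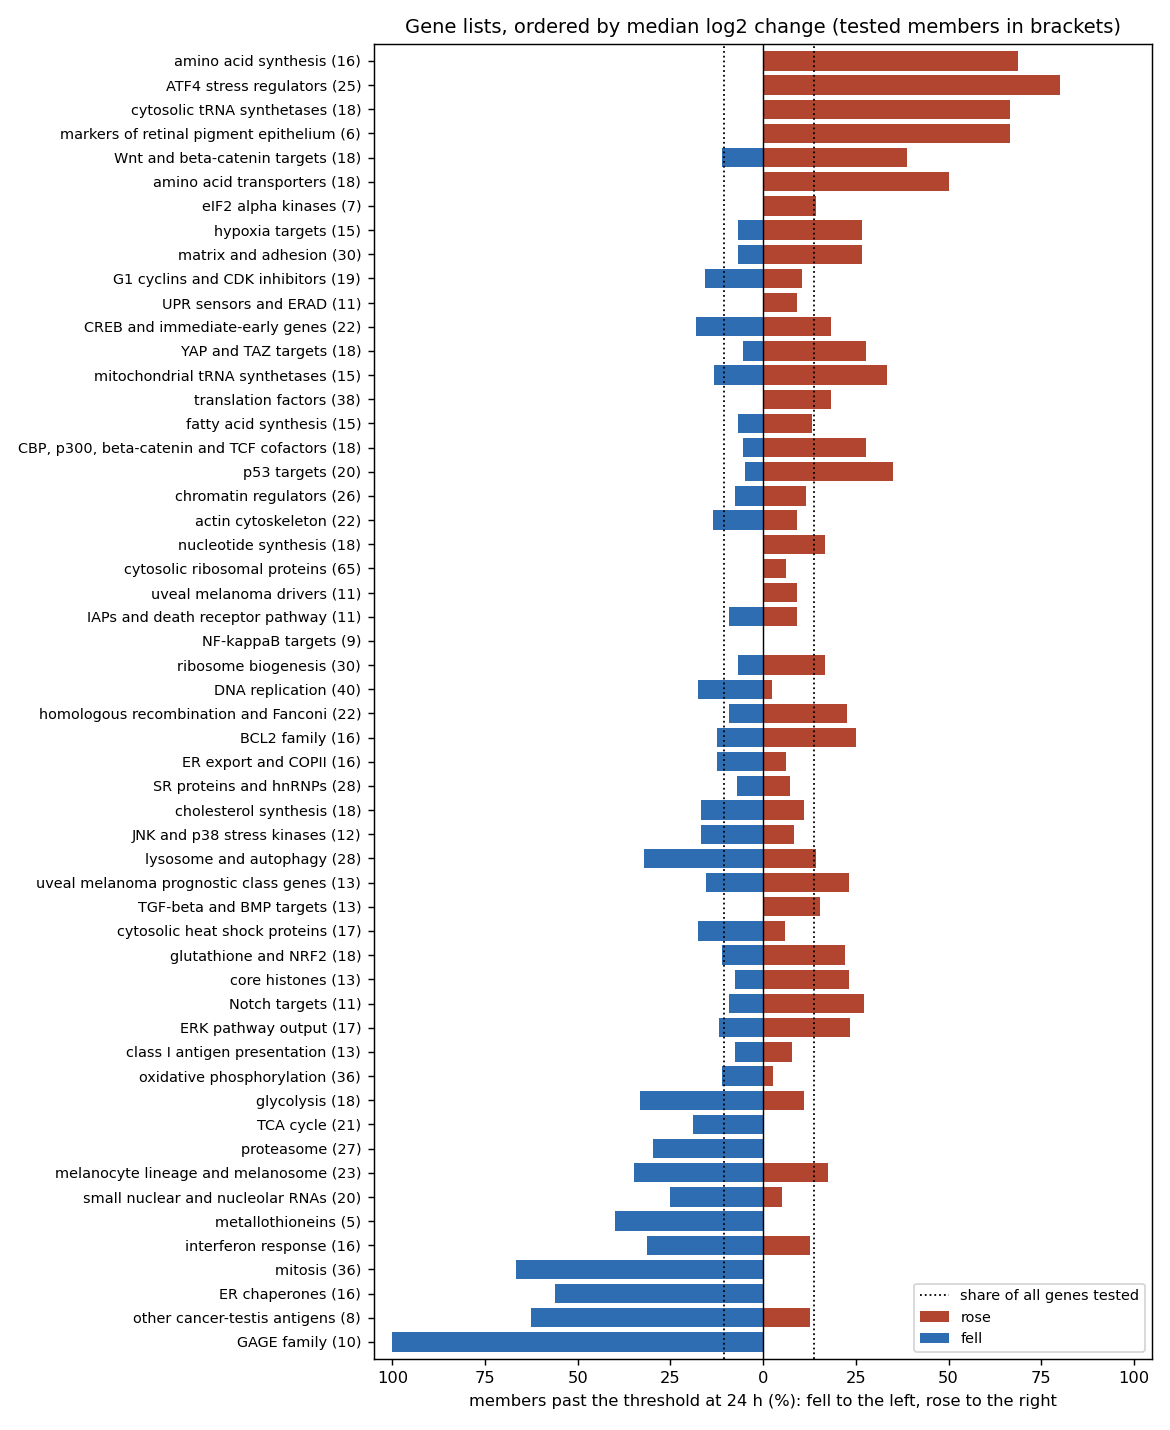
Share of the tested members of each gene list that rose (red, to the right) or fell (blue, to the left) at 24 h, in percent, for lists of at least 5 tested genes, ordered by median log2 change. Dotted lines mark the shares of all genes, 13.7% that rose and 10.5% that fell; 80% of ATF4 stress regulators rose and 100% of GAGE genes fell.

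Outside the lists, SCRG1 was next to ASNS in size of change (7.77-fold higher). It read 10.37, 10.31, 10.44 and 10.42 with ICG-001, against 7.45, 7.46 and 7.42 with DMSO, so each group was tight and the 2 lay far apart. ABCA3, a lipid transporter, read 7.43, 7.76, 7.45 and 7.24 with ICG-001, against 4.86, 5.15 and 5.45 with DMSO, and no DMSO array reached a detection p-value below 0.01. The change was 2.35 log2 units here and 0.76 by the authors' processed values. USF1, an E-box factor, AFMID, an enzyme of tryptophan breakdown, and CDC42SE1 were 4.61-fold, 4.5-fold and 4.45-fold higher, and another probe of USF1 and of AFMID was called the same way. The tyrosine kinase MATK, the purinergic receptor P2RY11, the potassium channel subunit KCNG1 and the membrane protein TMEM47 were 3.11-fold to 3.3-fold higher. RABL2A was 3.41-fold higher on its brightest probe, with another probe called in the opposite direction.

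Among falls outside the lists, YWHAE, a 14-3-3 adaptor, read 8.79, 9.14, 8.90 and 8.77 with ICG-001, against 10.72, 11.01 and 11.18 with DMSO (4.08-fold lower). NACC1, a transcriptional corepressor, was 3.98-fold lower, and for both genes another probe was called the same way. The zinc finger factor MAZ was 2.98-fold lower, the membrane protein EMP3 3.17-fold and PI15, a secreted protease inhibitor, 2.76-fold. The sperm tail genes ROPN1 and ROPN1B, close copies of each other and therefore uncertain, were 2.88-fold and 2.93-fold lower.

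A few genes came up from background. On all 4 ICG-001 arrays and on no DMSO array, at p-values below 0.01 and above 0.05, were ALPL, a phosphatase of mineralising tissue, KLF5, a zinc finger factor, and RAB33B, a GTPase of the Golgi and autophagy. They were at least 2.26-fold, 1.80-fold and 1.71-fold higher, the bound being the lowest signal above background on the DMSO arrays. By the authors' processed values, on a scale close to log2, their changes were 0.34, 0.32 and 0.23, which read as log2 is less than these bounds. The bounds therefore hold only for the processing used here. ALPL read 6.35, 6.53, 6.27 and 6.23 with ICG-001, against 5.04, 4.77 and 4.94 with DMSO. The reverse pattern was found for 0 genes.

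The effect at 24 h was set against the effect at 48 h, which had its own DMSO arrays, to ask where they differ. The difference of the effects passed for 0 of 11679 genes (0%; limma, with 660 genes or 5.65% at an unadjusted p below 0.05, and 1 gene past the threshold without DMSO replicate 1 of 24 h). Genes called at both times in the same direction numbered 1912, which is 67.5% of the calls at 24 h and 63.5% of those at 48 h. Across genes, which are not independent replicates, the 2 effects had a Pearson correlation of 0.814. The amino acid synthesis list had medians of 1.14 at 24 h and 1.15 at 48 h, the cytosolic synthetases 0.76 and 0.77, and the ER chaperones -0.51 and -0.58. Mitosis genes had medians of -0.48 at 24 h, with 24 fallen, and -0.24 at 48 h, with 9 fallen and 3 risen, and 0 of the 36 passed the test of the difference. TUBB2A and TUBA3D, both tubulins, were called in opposite directions, with log2 changes of -0.53 and -0.48 at 24 h against 0.68 and 0.40 at 48 h, and their differences did not pass (adjusted p = 0.743 for each). KIF1A, a neuronal kinesin, had 1.13 and 2.10, and TRIM47 had -0.78 and -1.66, with the same adjusted p of 0.743. These 4 genes were named after their values were seen.

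**Figure D5:**
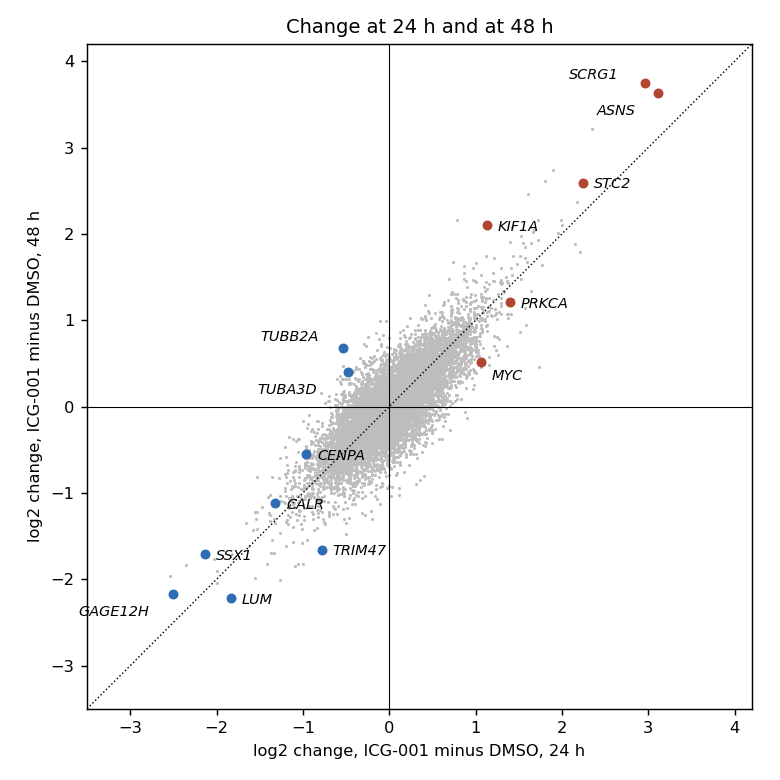
Log2 change, ICG-001 minus DMSO, at 24 h (horizontal axis) and at 48 h (vertical axis), with a grey point for each of the 11679 genes, named genes in red where the 24 h change is positive and blue where it is negative, and a dotted line of equal change. ASNS (3.11 and 3.63) and GAGE12H (-2.51 and -2.17) lie near the line, and TUBB2A (-0.53 and 0.68) lies in the upper left.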

How the data were processed

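Total RNA had been amplified, biotin-labelled and hybridised to Illumina bead arrays, per the labels' protocols. The authors deposited an intensity for 47323 probes on each array, not normalized, and beside it, per the file headers, a detection p-value in steps of 1 in 770. A second table deposited by the authors holds processed values on a scale close to log2. The submitters' processing notes name lumi. How it corrected, scaled and transformed the values is not stated in what was used here.

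Here intensities were background-corrected from the detection p-values, offset by 16, quantile normalized and log2-transformed with neqc (limma 3.58.1, R 4.3.3). Kept were those probes detected at p below 0.05 by 3 or more of 14 arrays (22158, of which 15665 carried 1 gene symbol of the platform annotation and 6493 no single symbol). The brightest probe stood for each of 11679 genes. Arrays of a shared title number were averaged. A means model over all 4 groups (lmFit, eBayes, residual degrees of freedom 6) gave the 24 h contrast and its difference from 48 h, so that the 48 h arrays share in the estimate of spread. The number of arrays limits the precision. The procedure was tested on simulated data. The members and lists were chosen with earlier results of these data known. Named were the 20 largest rises and falls with non-overlapping replicates, up to 8 members of each list each way by p, and a fixed set including ASNS, ATF4, DDIT3, CREBBP, CTNNB1, MYC and GNAQ. Alternatives changed background correction, scaling, filter, the set of probes fitted, averaging, block, weights, samples fitted and the table used. In each of them a gene was read from its brightest probe past the filter in use. A call that held under all alternatives therefore says nothing about the other probes of that gene.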

Additional observations from a re-analysis of the deposited data

How the results depend on the processing

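The count of 2833 genes past the threshold at 24 h stayed within 1.5 times under the alternatives not named below as added, except the removal of the averaged DMSO pair. Leaving out each 24 h replicate in turn gave 1514 to 2441 genes past the threshold, 849 to 1478 higher and 665 to 994 lower, the lowest being without the DMSO pair in each case. Leaving out each 48 h replicate, which shares in the spread, gave 2570 to 2692 genes past the threshold. The count was 0 to 1 for the difference of effects (1 without DMSO replicate 1 of 24 h). Of alternatives added after seeing the data, a fit of every array with the letter b as a covariate gave 4581 (2532 higher, 2049 lower), and the 24 h groups alone without the b arrays gave 1815 (1014 higher, 801 lower). With 75th percentile scaling 51.5% of the 2852 calls were higher. Without the b arrays there were 2646 calls, of which 2436 were calls of the full set. No paired analysis was possible because the ICG-001 and DMSO titles have no number in common. The title number as a random block (correlation 0.175) gave 3451 calls. Of 319 named genes that were called, 147 kept the call under all their alternatives (19 or 20) and 0 reversed; 144 lost it without the DMSO pair, 65 without DMSO replicate 1, 33 without the b arrays and 26 in the authors' table. Signals near background limit how well the size of a change is known. Of the 319, 158 had a log2 change over 1.5 times smaller in the authors' table, and the cause was not tested.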

Other observations

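Probes with no single gene symbol also responded. In a fit over all probes past the filter, 688 of 6493 unnamed probes passed the threshold at 24 h (10.6%), 345 higher and 343 lower, against 3106 of 15665 named probes (19.8%). These probes are not assigned to genes here. Of 885 called genes with more than 1 probe past the filter, 271 had another probe called the same way and 35 had another probe called in the opposite direction.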
